A study of Mus musculus with 9 samples.

Results

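The genes described here mark 3 related blood lineages, red cell precursors, megakaryocytes (the cells that shed platelets), and mast cells and basophils. They were taken from a list of 28 genes by symbol, with the probe set of highest mean standing for each gene. Of the 28 genes, 25 had a probe set, 1 each, among 19572 named probe sets, and no value was found under the names Hba-a1 (alpha globin), Gp1ba or Gp1bb (chains of the platelet receptor for von Willebrand factor). These lineages share the transcription factor Gata1, which works with the cofactor Zfpm1 in red cell precursors and megakaryocytes. In red cell precursors it acts with Klf1 to switch on globin genes, the heme pathway and membrane proteins. Mast cells and basophils store proteases, such as Cpa3 and Mcpt8, and histamine in their granules.

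The arrays came from C1498, a mouse acute myeloid leukaemia cell line, infected with lentivirus that carried GFP and 1 of 3 constructs. shZeb1_C and shZeb1_D are separate hairpins against Zeb1, a DNA-binding repressor best known from epithelial-mesenchymal transition, and Scr is the negative control construct, which also carries GFP. GFP-positive cells were collected 2 weeks after infection, and each group has 3 arrays, numbered 10 to 12 for shZeb1_C, 13 to 15 for shZeb1_D and 7 to 9 for Scr. Whether arrays within a group stem from separate infections is not stated in the labels, so each p reflects only the spread among these samples, which could be technical. The small number of arrays limits the precision.

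The values are log2 RMA signals, and array medians lay between 6.97 and 7.16. Zeb1 stood at 10.41, 10.01 and 10.34 in shZeb1_C, 9.56, 9.26 and 9.40 in shZeb1_D, and 10.52, 10.29 and 10.56 in Scr. Its log2 fold change against Scr was -1.05 ± 0.16 (SE) in shZeb1_D (limma adjusted p = 0.0263) and -0.20 ± 0.16 in shZeb1_C (limma adjusted p = 0.895), so the target was lower with hairpin D, while its difference with hairpin C missed the threshold. The call for shZeb1_D was lost without Scr array 7, 8 or 9 or shZeb1_D array 14 or 15, where limma's adjusted p ran from 0.0502 to 0.157. As a check of the labelled cell type, 14 of 17 myeloid and leukocyte genes lay within the range of receptors of smell and pheromones defined below. Spi1, Cebpa, Itgam and Csf1r were among them. Ptprc (CD45), Mpo and Fcgr3 lay above it, Mpo only just, with group means of 7.61 to 7.72. Fcgr3 had log2 fold changes of -4.10 in shZeb1_C (limma adjusted p = 5.62e-05) and -0.78 in shZeb1_D (limma adjusted p = 0.118). It was also called for the mean of both hairpins and between the hairpins. Of 12 measured T and NK cell genes, 8 had at least 1 group mean above that range. In Scr those above it were Cd3d, Cd3e, Cd3g, Cd247 and Cd4. Cd2 lay above it only with the hairpins, and Gzmb and Nkg7 only in shZeb1_C. Gzmb and Nkg7 were called in shZeb1_C and between the hairpins. The log2 fold change of Nkg7 in shZeb1_C was 5.93 (limma adjusted p = 0.0109). Summed on the linear scale, the myeloid list had a log2 level of 14.71 to 15.26 in shZeb1_C, 14.60 to 15.41 in shZeb1_D and 14.74 to 15.36 in Scr, and the T and NK cell list 16.31 to 16.55 in shZeb1_C, 15.91 to 16.06 in shZeb1_D and 16.06 to 16.51 in Scr. Ptprc alone ran from 14.64 to 15.21 in shZeb1_C, 14.40 to 15.31 in shZeb1_D and 14.48 to 15.20 in Scr. The myeloid sum therefore mostly reflected this gene. Arrays 8, 12, 14 and 15 also lay apart from the other 5 on the first principal component of the differences within groups. That component held 57.9% of this variance. Of these arrays, Scr holds array 8, shZeb1_C array 12, and shZeb1_D arrays 14 and 15.

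Promoter windows of members are printed first, because the results turn on the genes that lay farthest from Scr (Zfpm1, Urod, Tfrc, Mcpt8) and on a mast cell gene with a high signal in every array (Cpa3). The window of Klf1 is added as that of a red cell regulator. Each runs from 250 bases before to 50 bases after the annotated start, from RefSeq (GRCm38.p6), written 5′ to 3′ on the strand of the gene. Capitals mark a GATA motif (AGATAA or TGATAA, or the reverse complement) or the E-box CACCTG, which Zeb1 is known to bind. The windows lie at chr8:122281891-122282190 on the plus strand for Zfpm1, chr4:116994364-116994663 on the minus strand for Urod, chr16:32608646-32608945 on the plus strand for Tfrc, chr14:56085148-56085447 on the minus strand for Mcpt8, chr3:20242132-20242431 on the minus strand for Cpa3 and chr8:84901732-84902031 on the plus strand for Klf1.
Zfpm1: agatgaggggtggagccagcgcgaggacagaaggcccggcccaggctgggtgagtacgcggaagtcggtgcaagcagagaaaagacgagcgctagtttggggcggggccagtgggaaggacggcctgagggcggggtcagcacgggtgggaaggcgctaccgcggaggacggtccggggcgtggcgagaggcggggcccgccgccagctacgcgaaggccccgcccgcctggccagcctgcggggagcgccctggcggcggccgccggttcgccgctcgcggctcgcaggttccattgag
Urod: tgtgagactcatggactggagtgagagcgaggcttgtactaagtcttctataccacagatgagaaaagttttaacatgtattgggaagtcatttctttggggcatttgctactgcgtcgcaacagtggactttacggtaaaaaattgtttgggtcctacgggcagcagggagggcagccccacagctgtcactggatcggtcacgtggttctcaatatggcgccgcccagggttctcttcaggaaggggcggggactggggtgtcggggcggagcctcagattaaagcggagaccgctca
Tfrc: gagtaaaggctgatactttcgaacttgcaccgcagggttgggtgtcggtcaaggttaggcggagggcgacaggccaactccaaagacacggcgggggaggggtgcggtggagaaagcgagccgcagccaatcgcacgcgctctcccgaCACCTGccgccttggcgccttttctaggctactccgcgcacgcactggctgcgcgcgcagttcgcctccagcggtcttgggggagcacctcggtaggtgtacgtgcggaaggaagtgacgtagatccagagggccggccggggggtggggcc
Mcpt8: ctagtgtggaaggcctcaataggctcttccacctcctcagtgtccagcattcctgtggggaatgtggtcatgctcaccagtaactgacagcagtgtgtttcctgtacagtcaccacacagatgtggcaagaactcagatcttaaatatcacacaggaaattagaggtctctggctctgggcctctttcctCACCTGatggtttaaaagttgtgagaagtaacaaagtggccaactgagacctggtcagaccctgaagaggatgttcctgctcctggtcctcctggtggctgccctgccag
Cpa3: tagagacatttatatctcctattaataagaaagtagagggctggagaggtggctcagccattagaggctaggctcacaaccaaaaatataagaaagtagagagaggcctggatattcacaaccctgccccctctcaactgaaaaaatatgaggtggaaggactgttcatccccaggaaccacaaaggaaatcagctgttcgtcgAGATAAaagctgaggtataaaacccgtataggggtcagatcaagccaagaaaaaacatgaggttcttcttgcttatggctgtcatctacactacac
Klf1: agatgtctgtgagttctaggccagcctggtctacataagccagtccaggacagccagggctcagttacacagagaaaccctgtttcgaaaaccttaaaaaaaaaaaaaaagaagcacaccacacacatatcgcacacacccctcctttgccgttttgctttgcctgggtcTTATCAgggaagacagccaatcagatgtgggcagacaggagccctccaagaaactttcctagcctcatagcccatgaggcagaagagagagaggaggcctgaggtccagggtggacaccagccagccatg

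RefSeq windows were found for 21 of the 28 genes. A GATA motif on either strand stood in a window of 10 of them, Klf1, Epor, Hba-a1, Alas2, Epb42, Rhag, Gp1ba, Pf4, Cpa3 and Ms4a2, against 18.6% of all 32851 windows of the same length. In Cpa3 it lay 46 bases upstream of the start and in Klf1 80 bases upstream. The E-box CACCTG, searched on both strands, stood in 2 of the 21, 60 bases upstream in Mcpt8 and 102 bases upstream in Tfrc, against 20.2% of all windows. A CACCC box, spelled CCACACCC and searched on both strands, stood in 0 of the 21 and in 3.56% of all windows. The windows of Zfpm1 and Urod held none of these letters. A match describes the letters in a window and does not show a binding site, and Tfrc has a further annotated start whose window held no match.

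No member passed the test in any comparison, and the largest fold changes among members whose 6 hairpin arrays all lay on the same side of Scr were those of Zfpm1 and Urod, below Scr, and Mcpt8, above it. At an adjusted p under 0.05 limma called 0 of 25 members in shZeb1_C (0.945% of all named probe sets were called), 0 in shZeb1_D (0.843%), 0 for the hairpins' mean against Scr (0.828%) and 0 in shZeb1_D against shZeb1_C (0.848%). At an unadjusted p under 0.05 the count was 3 in shZeb1_C (Urod, Zfpm1, Mcpt8), against 8.77% of all named probe sets, and 4 in shZeb1_D (Urod, Zfpm1, Itga2b, Tpsb2), against 13.6%. It was 3 for the mean of both hairpins (Urod, Zfpm1, Mcpt8), against 11.0%, and 3 in shZeb1_D against shZeb1_C (Klf1, Alas2, Tpsb2), against 11.7%. These shares of 12% and 16% of the members are near the background.

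Counted without a model, the arrays of shZeb1_C and Scr did not overlap for 3 members that were higher in shZeb1_C, Pf4, Mcpt8 and Ms4a2 (7.50% of all named probe sets), and 3 that were lower, Klf1, Urod and Zfpm1 (6.74%). In shZeb1_D 6 members lay wholly above Scr, Klf1, Nfe2, Gp9, Pf4, Mcpt8 and Tpsb2 (10.3% of all), and 3 wholly below, Epor, Urod and Zfpm1 (6.65%). The balance in shZeb1_D depended on the scaling: it was 1 above and 4 below with array medians subtracted (6.83% and 10.2% of all), and 3 above and 4 below after quantile normalizing again (8.99% and 8.21% of all). All 6 hairpin arrays lay above the 3 Scr arrays for Pf4 and Mcpt8 (2.58% of all) and below them for Urod and Zfpm1 (2.13%). Under both other scalings this stayed so for Mcpt8, Urod and Zfpm1 but not for Pf4. In shZeb1_D against shZeb1_C 5 members lay wholly above, Klf1, Alas2, Ank1, Itga2b and Tpsb2 (8.99% of all), and 1 wholly below, Itgb3 (6.26%). That total of 6 was 13 without shZeb1_C array 12, where 32.9% of all named probe sets did not overlap, and 10 without shZeb1_D array 14, where 24.1% did not, beside 15.2% with all arrays. With fewer arrays groups separate more readily.

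**Figure D1:**
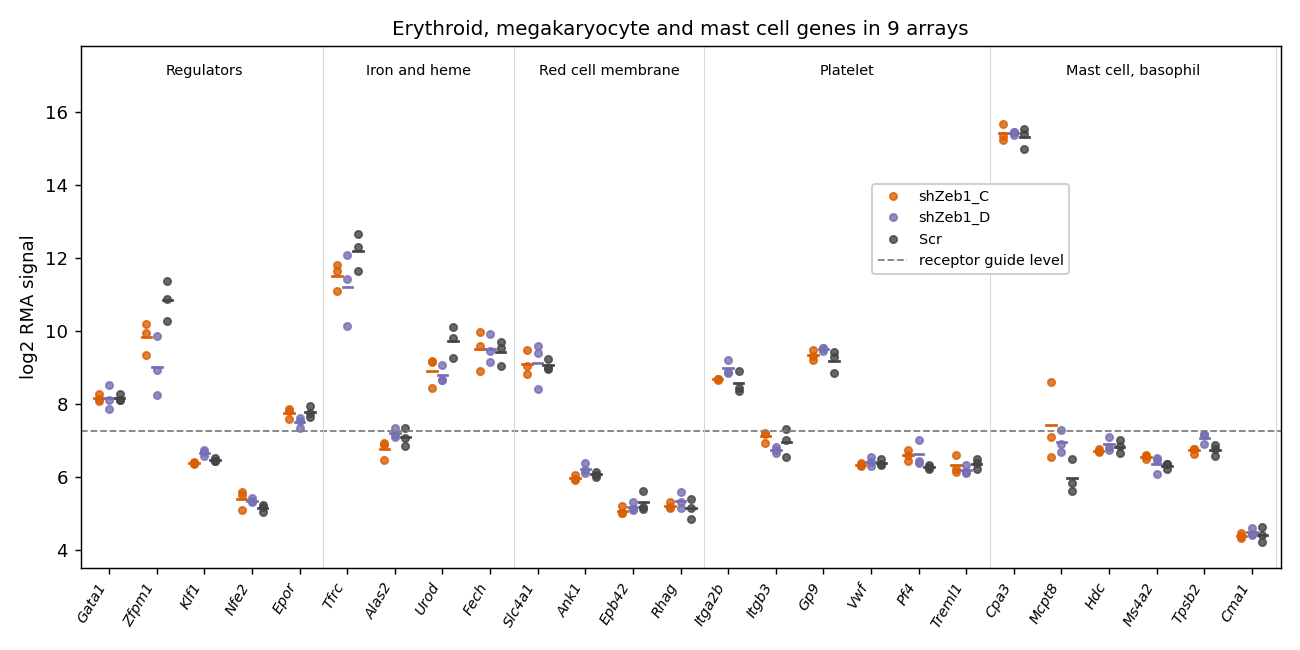
Log2 RMA signal (vertical axis) of the 25 measured genes by role, with 1 point per array and a bar at each group's mean, for shZeb1_C, shZeb1_D and Scr from left to right. The dashed line is the receptor guide level of 7.26, and Cpa3 lies far above it at 14.98 to 15.66, while all 6 hairpin arrays lie below Scr for Zfpm1 and Urod and above it for Mcpt8.

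Most of these genes gave signals within the range of genes that blood cells are not known to use. As a guide, 1414 probe sets of olfactory and vomeronasal receptors (the receptors of smell and pheromones) had a median of 5.72 and a 95th percentile of 7.26. A gene was placed in this range when its means in all 3 groups lay at or under 7.26. This held for 14 members, with group means from 4.39 to 7.20: Klf1, Nfe2, Alas2, Ank1, Epb42, Rhag, Itgb3, Pf4, Vwf, Treml1, Hdc, Ms4a2, Tpsb2 and Cma1. Of the other 18158 named probe sets, 46.2% lay there too. The remaining 11 members, Gata1, Zfpm1, Epor, Tfrc, Urod, Fech, Slc4a1, Itga2b, Gp9, Cpa3 and Mcpt8, had at least 1 group mean above it. For Mcpt8 this was so only in shZeb1_C, with a mean of 7.41, against 6.95 in shZeb1_D and 5.98 in Scr. A signal in that range does not show that a gene is silent, since probe sets differ in how well they bind. The 14 members in the range had log2 fold changes against Scr between -0.32 and 0.35, and their median range over the 9 arrays was 0.53, against 1.06 for the 11 above it.

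Among the regulators, Gata1, the master transcription factor of these lineages, was nearly level across groups. It stood at 8.12, 8.26 and 8.08 in shZeb1_C, 8.52, 7.86 and 8.10 in shZeb1_D and 8.27, 8.10 and 8.09 in Scr. The groups overlapped, and the log2 fold changes were 0.00 in shZeb1_C (95% confidence interval -0.41 to 0.41) and 0.01 in shZeb1_D (-0.40 to 0.42).

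Zfpm1 (FOG1), the cofactor that binds Gata1, was the member farthest below Scr. Its signal was 9.94, 10.17 and 9.34 in shZeb1_C, 9.86, 8.93 and 8.24 in shZeb1_D, and 10.86, 10.27 and 11.36 in Scr. Every hairpin array lay below every Scr array, and the arrays of the hairpins overlapped each other. In shZeb1_D the mean was 28.3% of the Scr mean, or -1.82 ± 0.42 as a log2 fold change (SE; 95% confidence interval -2.78 to -0.86; limma adjusted p = 0.110). In shZeb1_C it was 49.5% of the Scr mean, or -1.01 ± 0.42 as a log2 fold change (-1.97 to -0.06; limma adjusted p = 0.519). For the mean of both hairpins the value was -1.42 ± 0.37 (limma adjusted p = 0.156), and shZeb1_D minus shZeb1_C was -0.81 ± 0.42 (limma adjusted p = 0.504). The test was passed in shZeb1_D without array 13 of that group (-2.25, limma adjusted p = 0.0424). That left arrays 14 and 15, both among arrays 8, 12, 14 and 15, which lay apart on the first principal component. Within each group these arrays had the lower Zfpm1 signals. Their part in the result without array 13 was not tested. Without Scr array 9 limma's adjusted p in shZeb1_D was 0.418 (-1.55). The 2 array sets of the first principal component were taken from the values themselves. With these sets as a covariate the test was also passed (limma adjusted p of 0.0281 in shZeb1_C and 0.00744 in shZeb1_D). That setting called 875 genes in shZeb1_C and 772 in shZeb1_D over all named probe sets. Neighbours were taken among probe sets above the median signal. The 50 neighbours of Zfpm1 on chromosome 8 had a median log2 fold change of -0.13 in shZeb1_C and -0.31 in shZeb1_D. The part of these values in the result was not tested.

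Klf1, which switches on adult globin, had 6.35, 6.41 and 6.39 in shZeb1_C, 6.69, 6.72 and 6.58 in shZeb1_D and 6.43, 6.51 and 6.43 in Scr. The shZeb1_C arrays lay just below Scr and the shZeb1_D arrays just above it, all within the receptor range. The difference, shZeb1_D minus shZeb1_C, was 0.28 ± 0.12 (limma adjusted p = 0.424). Nfe2, a factor of platelet formation, had 5.51, 5.57 and 5.10 in shZeb1_C, 5.33, 5.41 and 5.30 in shZeb1_D and 5.16, 5.03 and 5.23 in Scr, with log2 fold changes of 0.25 in shZeb1_C and 0.21 in shZeb1_D. Epor, the receptor for erythropoietin, which keeps red cell precursors alive, had 7.81, 7.85 and 7.58 in shZeb1_C, 7.33, 7.52 and 7.62 in shZeb1_D and 7.94, 7.63 and 7.74 in Scr. Its shZeb1_D arrays lay below Scr, with the nearest arrays at 7.62 and 7.63, and the log2 fold changes were -0.02 in shZeb1_C and -0.28 in shZeb1_D. Its 50 neighbours on chromosome 9 had a larger median change, -0.36 in shZeb1_C and -0.65 in shZeb1_D.

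**Figure D2:**
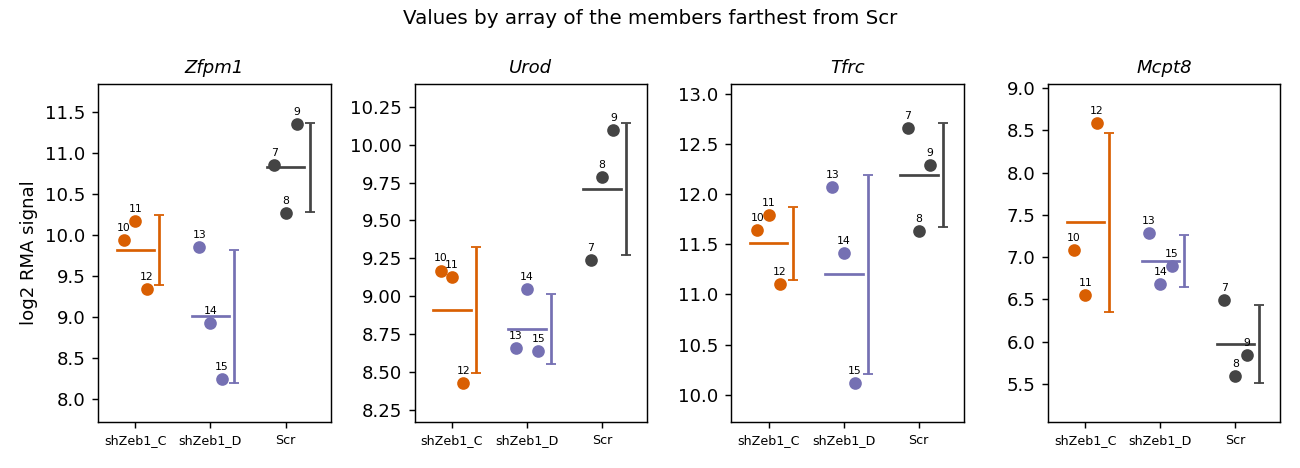
Log2 RMA signal (vertical axis, its own scale for each gene) of Zfpm1, Urod, Tfrc and Mcpt8 in each array of shZeb1_C, shZeb1_D and Scr, with array numbers, a bar at the mean and an error bar of 1 SD. All 6 hairpin arrays lie below Scr for Zfpm1 and Urod and above Scr for Mcpt8, while Tfrc overlaps.

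In the iron and heme group Urod and Tfrc were below Scr on average, and Fech and Alas2 were close to it. Urod, the heme enzyme uroporphyrinogen decarboxylase, had 9.17, 9.13 and 8.43 in shZeb1_C, 8.66, 9.05 and 8.64 in shZeb1_D, and 9.24, 9.79 and 10.10 in Scr. No hairpin array reached Scr, though shZeb1_C arrays 10 and 11 came close to Scr array 7. Its mean in shZeb1_D was 52.6% of the Scr mean, a log2 difference of -0.93 ± 0.27 (SE; 95% confidence interval -1.54 to -0.31; limma adjusted p = 0.191). In shZeb1_C it was 57.4%, with a log2 difference of -0.80 ± 0.27 (-1.42 to -0.18; limma adjusted p = 0.342). The mean of both hairpins gave -0.86 ± 0.24 (limma adjusted p = 0.179), and its 50 neighbours on chromosome 4 had medians of -0.14 in shZeb1_C and -0.27 in shZeb1_D.

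Tfrc, the transferrin receptor through which cells take up iron, had 11.64, 11.79 and 11.10 in shZeb1_C, 12.07, 11.41 and 10.12 in shZeb1_D and 12.66, 11.63 and 12.29 in Scr. The groups overlapped, with Scr array 8 inside the range of both hairpins. The log2 fold changes were -0.68 in shZeb1_C (95% confidence interval -1.73 to 0.36) and -0.99 in shZeb1_D (-2.04 to 0.05), and neither passed the test (limma adjusted p of 0.837 in shZeb1_C and 0.393 in shZeb1_D). Fech, the last enzyme of heme synthesis, had 8.91, 9.58 and 9.97 in shZeb1_C, 9.15, 9.92 and 9.44 in shZeb1_D and 9.02, 9.69 and 9.52 in Scr, with full overlap. Alas2, the red cell form of the first enzyme of heme synthesis, had 6.88, 6.93 and 6.45 in shZeb1_C, 7.34, 7.10 and 7.15 in shZeb1_D and 7.06, 6.83 and 7.34 in Scr. Both hairpins overlapped Scr, but not each other, and shZeb1_D minus shZeb1_C was 0.44 ± 0.19 (limma adjusted p = 0.404). That difference was 0.29 without shZeb1_C array 12.

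The heme pathway as a whole was measured through 18 of 20 genes of synthesis, transport and breakdown, 2 of them within the receptor range. Limma called 0 of the 18 against Scr with either hairpin at an adjusted p under 0.05, while 6 in shZeb1_C and 7 in shZeb1_D had an unadjusted p under 0.05, beside 8.77% of all named probe sets in shZeb1_C and 13.6% in shZeb1_D. The list's median log2 fold change was 0.08 in shZeb1_C and 0.11 in shZeb1_D, beside 0.00 in shZeb1_C and 0.04 in shZeb1_D for all named probe sets. The genes named next were chosen after their values were seen. Alas1, the form of the first enzyme that most tissues use, had 13.58, 13.90 and 14.15 in shZeb1_C, 13.68, 14.26 and 14.10 in shZeb1_D and 13.10, 13.28 and 13.09 in Scr. Alad, the second enzyme, had 11.62, 11.78 and 11.93 in shZeb1_C, 11.66, 12.40 and 12.43 in shZeb1_D and 10.16, 11.48 and 10.40 in Scr. All 6 hairpin arrays lay above Scr for both enzymes, on the other side from Urod, which acts later in the same pathway. The log2 fold changes of Alas1 were 0.72 in shZeb1_C (limma adjusted p = 0.200) and 0.86 in shZeb1_D (limma adjusted p = 0.112). Those of Alad were 1.10 in shZeb1_C (limma adjusted p = 0.273) and 1.48 in shZeb1_D (limma adjusted p = 0.107). Cpox, which follows Urod, had log2 fold changes of 0.65 in shZeb1_C and 0.91 in shZeb1_D. Ppox, the step before Fech, had -0.15 in shZeb1_C and 0.17 in shZeb1_D.

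Tmem14c, a mitochondrial carrier of heme precursors, had 15.27, 15.17 and 15.55 in shZeb1_C, 15.44, 15.47 and 15.52 in shZeb1_D and 14.78, 14.82 and 14.71 in Scr. Its hairpin arrays also lay above Scr, with log2 fold changes of 0.56 in shZeb1_C (limma adjusted p = 0.148) and 0.71 in shZeb1_D (limma adjusted p = 0.0702). Abcb10, a mitochondrial transporter, had 8.57, 8.69 and 7.29 in shZeb1_C, 8.96, 6.74 and 6.87 in shZeb1_D and 9.29, 7.87 and 9.47 in Scr. The groups overlapped, and within each group arrays 8, 12, 14 and 15 had the lower signals. The log2 fold changes were -0.69 ± 0.66 in shZeb1_C (SE; limma adjusted p = 0.935) and -1.35 ± 0.66 in shZeb1_D (limma adjusted p = 0.413). Hmox1, the heme oxygenase that breaks heme down, was the heme gene that differed between the hairpins. It had 8.17, 8.41 and 8.43 in shZeb1_C, 6.94, 7.12 and 7.48 in shZeb1_D and 7.74, 7.59 and 7.58 in Scr. The hairpins lay on opposite sides of Scr, and shZeb1_D minus shZeb1_C was -1.16 ± 0.17 (SE; limma adjusted p = 0.0175). The call was lost without shZeb1_C array 10, 11 or 12 or shZeb1_D array 14, and with only those 2 groups in the fit. Of 15 genes of iron uptake and storage, limma called 0 in any comparison. At an unadjusted p under 0.05 there were 0 in shZeb1_C (beside 8.77% of all) and 2 in shZeb1_D, Ireb2 and Pcbp1 (beside 13.6% of all). The median log2 fold change of the 15 was -0.12 in shZeb1_C and -0.40 in shZeb1_D. Over all named probe sets it was 0.00 in shZeb1_C and 0.04 in shZeb1_D.

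**Figure D3:**
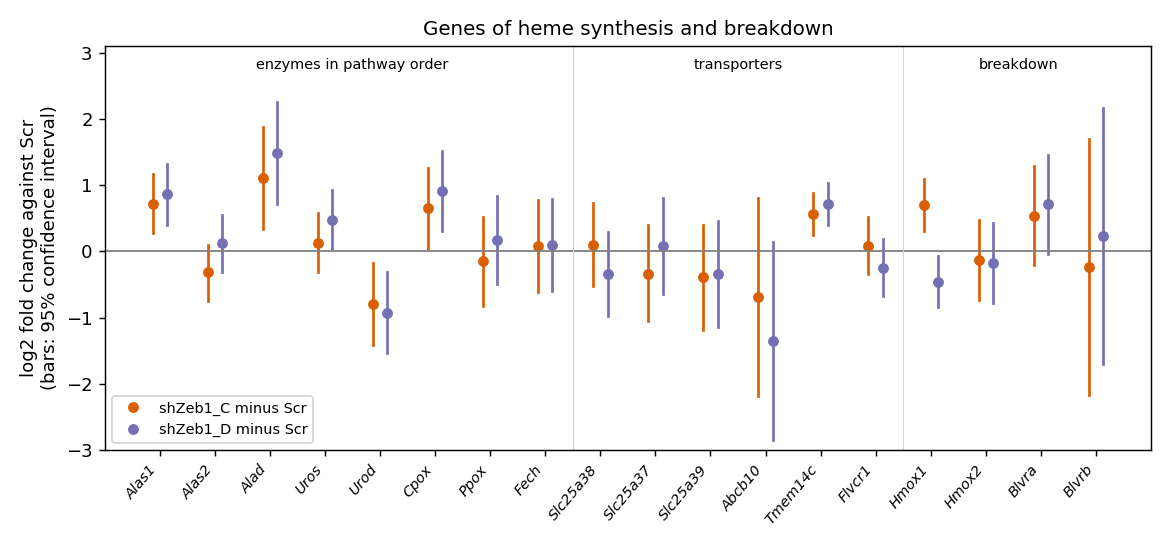
Log2 fold change against Scr (vertical axis, with 95% confidence intervals) of 18 genes of heme synthesis, transport and breakdown in shZeb1_C and shZeb1_D, enzymes in pathway order. Alas1, Alad, Cpox and Tmem14c lie above 0 and Urod below it with both hairpins, and Hmox1 lies at 0.70 in shZeb1_C and -0.46 in shZeb1_D.

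The 4 red cell membrane members had log2 fold changes against Scr between -0.23 and 0.21. Slc4a1 (band 3), the anion exchanger of the red cell, had 9.02, 8.81 and 9.47 in shZeb1_C, 8.41, 9.39 and 9.57 in shZeb1_D and 9.23, 8.96 and 8.98 in Scr. The groups overlapped, with log2 fold changes of 0.04 in shZeb1_C and 0.07 in shZeb1_D. Ank1, the ankyrin that ties band 3 to the membrane skeleton, averaged 5.96 ± 0.07 in shZeb1_C, 6.22 ± 0.13 in shZeb1_D and 6.06 ± 0.07 in Scr (SD, n = 3 each). The arrays of the hairpins did not overlap each other, and shZeb1_D minus shZeb1_C was 0.26 ± 0.13 (limma adjusted p = 0.503). Epb42 (protein 4.2) ran from 5.00 to 5.21 in shZeb1_C, 5.08 to 5.30 in shZeb1_D and 5.11 to 5.62 in Scr, and Rhag, part of the Rh complex, from 5.15 to 5.31 in shZeb1_C, 5.14 to 5.57 in shZeb1_D and 4.85 to 5.40 in Scr. Both lay deep in the receptor range and overlapped between all groups. Limma called 0 of 18 measured red cell membrane genes in any comparison, and 13 of the 18 lay in the receptor range. At an unadjusted p under 0.05 there were 2 in shZeb1_C, Cd47 and Icam4, and 0 in shZeb1_D, beside 8.77% of all named probe sets in shZeb1_C and 13.6% in shZeb1_D; both genes are named after their values were seen. Cd47, a surface signal against being engulfed that most cells carry, had 12.57, 12.60 and 14.45 in shZeb1_C, 11.49, 13.14 and 12.66 in shZeb1_D and 11.17, 12.10 and 10.74 in Scr, with log2 fold changes of 1.87 in shZeb1_C (limma adjusted p = 0.292) and 1.09 in shZeb1_D (limma adjusted p = 0.463). Icam4, an adhesion protein of red cells, had 6.11, 6.41 and 6.11 in shZeb1_C, 7.18, 7.22 and 6.99 in shZeb1_D and 6.62, 8.10 and 6.80 in Scr, with log2 fold changes of -0.96 in shZeb1_C (limma adjusted p = 0.372) and -0.04 in shZeb1_D. The shZeb1_C arrays lay wholly above Scr for Cd47 and wholly below it for Icam4, and the shZeb1_D arrays overlapped Scr for both. Of 12 globin genes and their chaperone 5 were measured, 0 were called (0 at an unadjusted p under 0.05 with either hairpin), and 4 lay in the receptor range. The fifth, Hbb-y, an embryonic beta-like globin, lay above that range and is named after its values were seen. It had 7.59, 7.27 and 7.38 in shZeb1_C, 7.36, 7.11 and 11.42 in shZeb1_D and 7.79, 8.61 and 9.71 in Scr. A single shZeb1_D array, number 15, was highest, and the spread among Scr arrays was also wide.

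Platelet members had small fold changes against Scr. Itga2b, the integrin chain CD41 that pairs with Itgb3 as the fibrinogen receptor, had 8.68, 8.67 and 8.66 in shZeb1_C, 9.20, 8.85 and 8.86 in shZeb1_D and 8.90, 8.34 and 8.44 in Scr. The shZeb1_D arrays lay above those of shZeb1_C and overlapped Scr, with a log2 fold change against Scr of 0.41 ± 0.18 (limma adjusted p = 0.365). Itgb3 had 7.21, 6.92 and 7.18 in shZeb1_C, 6.81, 6.65 and 6.72 in shZeb1_D and 7.02, 6.53 and 7.32 in Scr, so its arrays were lower in shZeb1_D than in shZeb1_C and spread across both in Scr. Gp9, a small chain of the receptor for von Willebrand factor, had 9.31, 9.21 and 9.46 in shZeb1_C, 9.52, 9.44 and 9.54 in shZeb1_D and 9.43, 9.28 and 8.83 in Scr. The shZeb1_D arrays lay above Scr by a gap of 9.44 to 9.43, and the log2 fold change was 0.32 ± 0.18. Pf4, platelet factor 4, a chemokine of platelet granules, had 6.44, 6.60 and 6.74 in shZeb1_C, 6.39, 7.02 and 6.44 in shZeb1_D and 6.21, 6.28 and 6.32 in Scr. All 6 hairpin arrays lay above Scr, inside the receptor range, though not with array medians subtracted or after quantile normalizing again, with log2 fold changes of 0.32 in shZeb1_C (limma adjusted p = 0.763) and 0.35 in shZeb1_D (limma adjusted p = 0.460). Vwf, von Willebrand factor, ran from 6.30 to 6.37 in shZeb1_C, 6.30 to 6.53 in shZeb1_D and 6.31 to 6.48 in Scr. Treml1, a receptor of platelet granules, ran from 6.13 to 6.59 in shZeb1_C, 6.09 to 6.32 in shZeb1_D and 6.20 to 6.49 in Scr, and the groups overlapped for both genes.

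Among 30 measured megakaryocyte and platelet genes limma called 0 against Scr, with 4 in shZeb1_C and 8 in shZeb1_D at an unadjusted p under 0.05, beside 8.77% of all named probe sets in shZeb1_C and 13.6% in shZeb1_D. In shZeb1_D against shZeb1_C it called Itga2, the chain of the platelet collagen receptor that is also found on other cells. Itga2 had 10.81, 10.58 and 11.43 in shZeb1_C, 9.73, 9.03 and 8.68 in shZeb1_D and 10.41, 10.17 and 10.36 in Scr. The 2 hairpins lay on opposite sides of Scr, and shZeb1_D minus shZeb1_C was -1.79 ± 0.29 (SE; limma adjusted p = 0.0282). Its call was lost without Scr array 7 or 9, without shZeb1_C array 10, 11 or 12, without shZeb1_D array 14 or 15, and with only those 2 groups in the fit. Rgs18, a regulator of G protein signals in platelets, had a larger fold change in shZeb1_C than any member. It had 10.15, 10.04 and 12.79 in shZeb1_C, 8.42, 10.40 and 9.51 in shZeb1_D and 7.64, 7.74 and 7.48 in Scr. Its hairpin arrays all lay above Scr, with log2 fold changes of 3.37 in shZeb1_C (limma adjusted p = 0.0777) and 1.82 in shZeb1_D (limma adjusted p = 0.314). It was named after these values were seen. In shZeb1_C 6 genes of the list lay wholly above Scr and 0 wholly below (7.50% and 6.74% of all). In shZeb1_D 6 lay wholly above and 3 wholly below (10.3% and 6.65% of all). Those below were Gp5 (-0.38, limma adjusted p = 0.348), Fermt3 (-1.12, limma adjusted p = 0.186) and Itga2 (-1.17, limma adjusted p = 0.129). Of 29 measured regulators limma called 0 in any comparison (5 in shZeb1_C, beside 8.77% of all, and 3 in shZeb1_D, beside 13.6% of all, at an unadjusted p under 0.05). In all, the lists held 121 measured genes that are not members, of which limma called 0 in shZeb1_C, 0 in shZeb1_D and 2, Hmox1 and Itga2, between the hairpins.

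**Figure D4:**
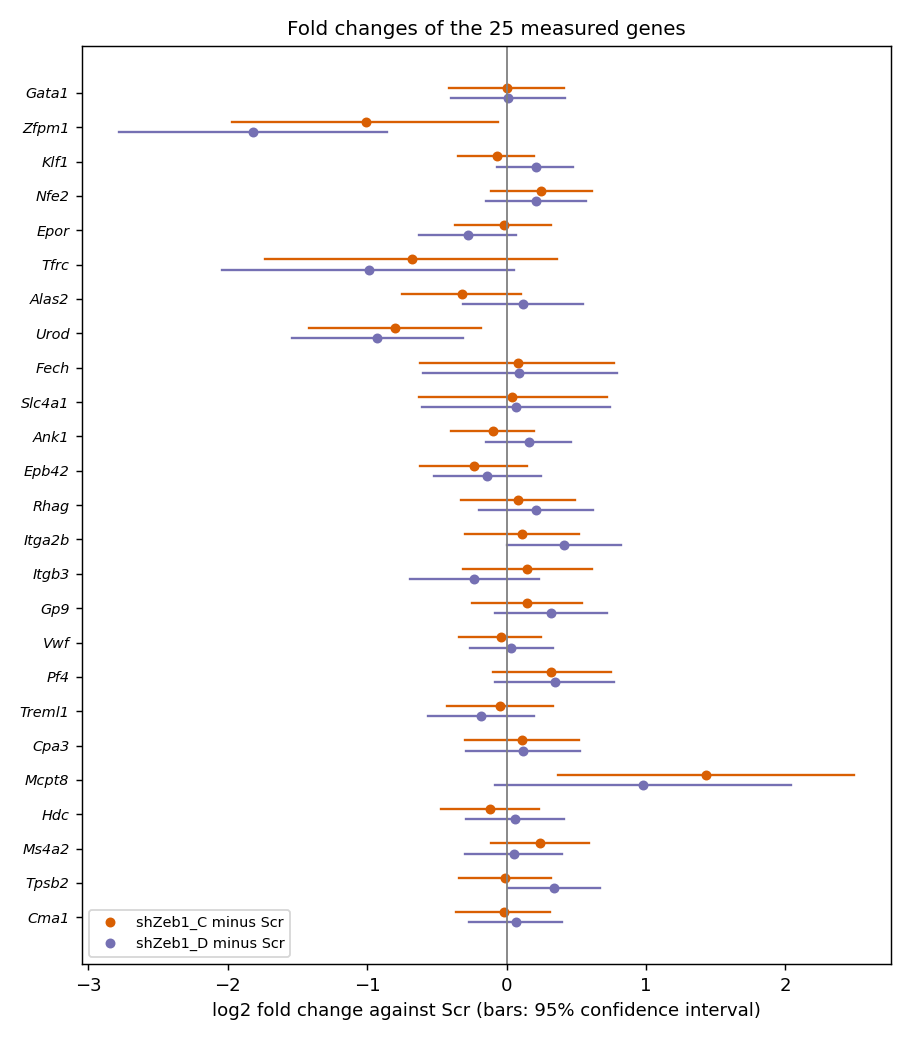
Log2 fold change against Scr (horizontal axis) of the 25 measured genes in shZeb1_C and shZeb1_D, with 95% confidence intervals. Most genes lie close to 0, and the intervals of Zfpm1 and Urod lie below 0 with both hairpins while that of Mcpt8 lies above 0 in shZeb1_C and those of Itga2b and Tpsb2 start close to 0 in shZeb1_D.

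Of the 6 mast cell and basophil members, Mcpt8 alone lay above Scr in every hairpin array. Mcpt8, a protease of mouse basophils, had 7.09, 6.55 and 8.59 in shZeb1_C, 7.28, 6.68 and 6.90 in shZeb1_D, and 6.49, 5.60 and 5.84 in Scr. The gap to Scr was narrow, 6.55 against 6.49, and array 12 of shZeb1_C stood well above the rest. The means of Mcpt8 in shZeb1_D and Scr lay in the receptor range. The mean was 270.1% of Scr in shZeb1_C, a log2 fold change of 1.43 ± 0.47 (SE; 95% confidence interval 0.37 to 2.49; limma adjusted p = 0.309), which was 0.84 without array 12 of that group. In shZeb1_D it was 196.8% of Scr, a log2 fold change of 0.98 ± 0.47 (limma adjusted p = 0.405). The mean of both hairpins gave 1.21 ± 0.41 (limma adjusted p = 0.300). Mcpt8 lies on chromosome 14 in a run of protease genes, in the order Cma1, Cma2, Mcpt1, Mcpt2, Mcpt9, Mcpt4, Mcpt8, Ctsg, Gzmg, Gzmn, Gzmf, Gzmc and Gzmb. Gzmc, next to last in the run, had 7.34, 6.22 and 11.32 in shZeb1_C, 4.95, 5.03 and 4.07 in shZeb1_D and 4.22, 4.70 and 4.49 in Scr. Its log2 fold changes were 3.82 in shZeb1_C (limma adjusted p = 0.192) and 0.21 in shZeb1_D. At the end of the run Gzmb, granzyme B of cytotoxic lymphocytes, rose in shZeb1_C by 4.33 (limma adjusted p = 0.0109) and had a log2 fold change of 0.21 in shZeb1_D. Gzmb had 11.09, 8.78 and 11.31 in shZeb1_C, 5.97, 6.79 and 6.04 in shZeb1_D and 6.41, 5.75 and 6.02 in Scr, so the arrays of Gzmc and Gzmb lay above Scr in shZeb1_C and overlapped it in shZeb1_D, while those of Mcpt8 lay above Scr with both hairpins.

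Cpa3, carboxypeptidase A3 of mast cell granules, had a signal of 15.33, 15.23 and 15.66 in shZeb1_C, 15.44, 15.43 and 15.36 in shZeb1_D and 14.98, 15.52 and 15.38 in Scr. It was high in all 9 arrays and the groups overlapped, with log2 fold changes of 0.11 in shZeb1_C (95% confidence interval -0.30 to 0.52) and 0.12 in shZeb1_D (-0.29 to 0.53). Tpsb2, a tryptase, had 6.77, 6.77 and 6.63 in shZeb1_C, 6.90, 7.14 and 7.18 in shZeb1_D and 6.58, 6.86 and 6.77 in Scr. Its shZeb1_D arrays lay above both other groups, by 0.34 ± 0.15 over Scr (limma adjusted p = 0.356) and 0.35 ± 0.15 over shZeb1_C (limma adjusted p = 0.394), inside the receptor range. Ms4a2, the beta chain of the high-affinity IgE receptor, had 6.57, 6.59 and 6.48 in shZeb1_C, 6.47, 6.52 and 6.07 in shZeb1_D and 6.35, 6.35 and 6.21 in Scr, with only shZeb1_C wholly above Scr. Hdc, which makes histamine, ran from 6.67 to 6.76 in shZeb1_C, 6.74 to 7.09 in shZeb1_D and 6.64 to 7.00 in Scr. Cma1, a chymase, ran from 4.33 to 4.46 in shZeb1_C, 4.40 to 4.59 in shZeb1_D and 4.21 to 4.61 in Scr, and both genes overlapped between all groups.

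Many other mast cell and basophil genes lay in the receptor range, though not all. Of 32 measured mast cell and basophil genes 21 lay there, including Kit, Fcer1a, Ms4a2 and Mitf. Those above it included Cpa3, Mcpt1, Srgn, Slc18a2, Hpgds, Prss34, Il3ra and Csf2rb, and Mcpt8 through its mean in shZeb1_C only. Limma called 0 of the 32 in any comparison, with 4 in shZeb1_C (beside 8.77% of all) and 2 in shZeb1_D (beside 13.6% of all) at an unadjusted p under 0.05. The list's summed level was 15.81 to 16.58 in shZeb1_C, 15.91 to 16.26 in shZeb1_D and 15.51 to 16.23 in Scr, so the groups overlapped. Cpa3 alone ran from 15.23 to 15.66 in shZeb1_C, 15.36 to 15.44 in shZeb1_D and 14.98 to 15.52 in Scr. The sum was set mostly by Cpa3, Srgn and Hpgds and tells little about the other genes of the list. In bulk RNA a smaller share of cells that use a gene and less RNA per cell cannot be told apart.

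Over the 25 members the median log2 fold change was -0.01 in shZeb1_C, 0.07 in shZeb1_D and 0.03 for the mean of both hairpins, beside medians over all named probe sets of 0.00 in shZeb1_C, 0.04 in shZeb1_D and 0.02 for the mean. In shZeb1_D against shZeb1_C it was 0.02, beside 0.04 over all. The values in shZeb1_C ran from -1.01 (Zfpm1) to 1.43 (Mcpt8), with 11 above and 13 below 0, and in shZeb1_D from -1.82 (Zfpm1) to 0.98 (Mcpt8), with 18 above and 7 below. With array medians subtracted the members' median was -0.08 in shZeb1_C, -0.02 in shZeb1_D (12 above and 13 below 0) and -0.05 for the mean of both hairpins (10 above and 15 below), beside -0.07 in shZeb1_C, -0.04 in shZeb1_D and -0.06 for the mean over all named probe sets, so the sign of the median depended on the scaling. A size of 0.5 was reached by 4 members in shZeb1_C (Zfpm1, Urod, Tfrc and Mcpt8), against 12.1% of all named probe sets, and by 4 in shZeb1_D (Zfpm1, Urod, Tfrc and Mcpt8), against 18.0%. Both comparisons use the same Scr arrays. The members' 95% confidence intervals reached 0.28 to 1.06 on either side of the fold change, with a median of 0.41, so changes smaller than that could not be resolved for the typical member with these arrays.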

How the data were processed

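Total RNA of 9 samples of GFP-positive C1498 cells was labelled with biotin and read on 1-colour arrays, per the labels. Per the submitters' processing notes, RMA and Transcriptome Analysis Console were used; their versions, and the build behind the probe sets, are not given in the sources used here. The values the authors deposited were RMA signals on a linear scale, made from log2 values of 2 decimals and stored with the decimal point missing, so they were read as other than a plain intensity. The point was put back where the log2 value became a multiple of 0.01, within 1e-06 steps, for all 199854 values. The farthest accepted value was 1.1e-12 steps away and the nearest rejected place 0.193.

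The platform annotation gave 1 symbol to 19572 of 22206 probe sets and several to 0. It gave none to 2634, which were not tested. Log2 values were tested with limma 3.58.1 in R 4.3.3, fitting group means over all 9 arrays, with empirical Bayes moderation and Benjamini-Hochberg adjustment over the named probe sets. Calls needed an adjusted p under 0.05. The steps were tested on simulated data with independent noise in each array, which leaves out the differences that arrays share here. A member's fold change, SE and adjusted p were given where it was called, had an unadjusted p under 0.05 or reached 1 in size; related genes were named where called, and others only as genes chosen after their values were seen. The members, the 7 related gene lists and the marker lists were chosen with earlier results of these data known. Neighbours were the nearest 25 named probe sets on each side in RefSeq order (GRCm38.p6). Only probe sets whose mean over all arrays lay above the median of all named probe sets were used. Motifs were sought in RefSeq windows of 300 bases. Other settings covered dim and unnamed probe sets, the variance prior, normalization, array weights, the arrays in the fit, the array sets and leaving out each array. The members' fold changes and overlaps were also counted after other scalings.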

Additional observations from a re-analysis of the deposited data

Results flagged for a closer look

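Between the hairpins, Hmox1 (shZeb1_D minus shZeb1_C -1.16, limma adjusted p = 0.0175) and Itga2 (-1.79, limma adjusted p = 0.0282) differed by the direct test. For Klf1 (0.28), Alas2 (0.44) and Ank1 (0.26), every array of shZeb1_D lay above the Scr mean and every array of shZeb1_C below it. Their direct tests did not pass the threshold, with limma adjusted p of 0.424 for Klf1, 0.404 for Alas2 and 0.503 for Ank1, and all 3 genes lie within the receptor range.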

How the results depend on the processing

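No paired analysis was possible because the groups share no replicate numbers. No called value changed its direction. The members' median log2 fold change, which has no test, changed sign with array medians subtracted in shZeb1_D (-0.02, against 0.07) and for the mean of both hairpins (-0.05, against 0.03). Over all named probe sets the counts of calls depended on the setting, and the cause was not tested. With the array sets as a covariate limma called 875 in shZeb1_C, 772 in shZeb1_D, 804 for the mean of both hairpins and 700 in shZeb1_D against shZeb1_C. With array weights it called 572 in shZeb1_C, 1076 in shZeb1_D, 639 for the mean and 833 between the hairpins. With only the groups compared in the fit, which leaves fewer samples, it called 68 in shZeb1_D and 81 between the hairpins. Leaving out 1 array at a time gave 43 to 214 in shZeb1_C, 14 to 213 in shZeb1_D, 16 to 219 for the mean and 49 to 162 between the hairpins.

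Among the members, Zfpm1 became the 1 called gene with the array sets as a covariate in shZeb1_C, in shZeb1_D and for the mean, and with array weights in shZeb1_D and for the mean. Leaving out 1 array gave 0 to 1 called members in shZeb1_D and for the mean, and 0 in shZeb1_C and between the hairpins. The count of members whose arrays did not overlap fell to 5 in shZeb1_D with array medians subtracted. It ran from 6 to 8 in shZeb1_C, 10 to 12 in shZeb1_D, 4 to 5 for the mean and 6 to 13 between the hairpins when 1 array was left out. The share over all named probe sets then ran from 20.0% to 27.7% in shZeb1_C, 21.1% to 38.7% in shZeb1_D, 5.51% to 11.8% for the mean and 20.7% to 34.7% between the hairpins.

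Counts of called genes among the 121 measured genes of the related lists that are not members were settings chosen after the data had been seen. They came to 9 in shZeb1_C, 8 in shZeb1_D, 9 for the mean and 5 between the hairpins with the array sets as a covariate, with Alad, Alas1 and Tmem14c higher in the first 3. They came to 6 in shZeb1_C, 11 in shZeb1_D, 7 for the mean and 5 between the hairpins with array weights, to 1 (Tmem14c) for the mean after quantile normalizing again, and to 0 between the hairpins with only those groups in the fit. Without 1 array they ran from 0 to 1 in shZeb1_C, 0 to 1 in shZeb1_D, 0 to 2 for the mean and 0 to 3 between the hairpins. With the array sets as a covariate or with array weights, calls over all 19572 named probe sets also rose, to the counts given above.

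Zeb1 lost its call in shZeb1_D with a trended, robust variance prior (-1.05, limma adjusted p = 0.0796) and with only the groups compared in the fit (-1.05, limma adjusted p = 0.0626). It was called for the mean of both hairpins with the array sets as a covariate (-0.61) and with array weights (-0.70), and between the hairpins under both (-0.81 and -0.87). Without 1 array it ran from -0.29 to -0.08 in shZeb1_C, -1.13 to -0.98 in shZeb1_D, -0.71 to -0.57 for the mean and -0.97 to -0.77 between the hairpins. Leaving out dim probe sets kept 12 of the 25 members. Signal over background limits the 14 members within the receptor range, where a change in RNA may not move the signal. The same limit applies to Mcpt8, whose means in shZeb1_D and Scr lay in that range.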
